A study of Mus musculus with 6 samples.

Results

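The genes described here are 10 targets of the transcription factor p53 that act in programmed cell death outside the BCL2 family: the receptors Fas, Tnfrsf10b and Eda2r, the membrane protein Perp, the AKT repressor Phlda3, the caspase adaptors Pidd1 and Apaf1, and the effectors Aen, Ei24 and Trp53inp1. They were chosen by gene symbol, with earlier results of these data known, and all 10 were found among the 24110 genes of the deposited table. Shares of all genes set beside counts of members or listed genes are therefore descriptions and not tests. RNA-seq was made from mouse hematopoietic stem cells, a bone marrow population sorted as negative for lineage markers and CD48 and positive for Sca-1 and CD150. The tested cells came from Prmt5 KO mice, in which the floxed gene for the arginine methyltransferase PRMT5 had been deleted, and the control cells from Prmt5 fl/fl mice with the floxed gene intact. Both groups were C57BL/6, were taken 7 days after induction, and held 3 libraries, each from the pooled marrow of 2 mice. The genotypes were matched for litter and sex. The sources used here do not give the Cre driver, the inducing agent or the age of the animals.

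In damaged or stressed cells p53 switches on genes that lower the threshold for death by several routes. Death receptors at the cell surface carry a death domain that recruits the adaptor FADD and caspase-8 once a ligand binds. Inside the cell, PIDD1 assembles a platform for caspase-2, and APAF1, on binding cytochrome c, assembles the apoptosome that activates caspase-9. Hematopoietic stem cells are known for strong p53 responses to DNA damage, which can end in arrest, differentiation or death.

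Every member was tested, with a mean over all libraries above the minimum of 10 scaled counts. Values are scaled counts, that is reads per gene brought to a common library total of 44704636, and the fold changes are differences of means of log2(scaled count + 1), Prmt5 KO over Prmt5 fl/fl. Of the 10 members 3 rose in Prmt5 KO cells and 0 fell (limma, adjusted p below 0.05 over 14113 genes tested), against 0.276% of all genes tested that rose. These were Phlda3, Eda2r and Tnfrsf10b, by 5.98, 8.34 and 3.04 times. The count was 0 with the replicate number as a block in the fit, 0 when KO replicate 1 or 3 was left out and 2 when KO replicate 2 was. Leaving out fl/fl replicates 1, 2 and 3 in turn gave 1, 2 and 3. Calls over all genes changed in the same fits, from 39 higher in the main fit to 1 with the block. They were 1, 15 and 1 without KO replicates 1, 2 and 3, and 4, 4 and 120 without fl/fl replicates 1, 2 and 3. In 7 of 10 members every Prmt5 KO value lay above every fl/fl value, an arrangement seen in 8.30% of all genes tested. At an unadjusted p below 0.05, 7 members were higher and 0 lower, against 4.58% and 13.6% of all genes tested. DESeq2 called 7 members higher, against 2.64% of the genes it tested, and edgeR called 3, against 0.241%. All 10 log2 fold changes were above 0, as were 44.8% of those of all genes tested, and the medians were 0.93 over the members and -0.048 over all genes tested.

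The start regions of the members with the largest folds, Phlda3 and Eda2r, are shown, and those of Aen and Ei24 because they were the windows with a p53 half-site, the 10-letter consensus that p53 binds in pairs. RefSeq sequences on GRCm38.p6 were matched by symbol for 7 of 10 members, in 8 windows of 250 bases before a start site. Aen has 2 of these windows, which overlap, and the Aen and Ei24 stretches printed here lie within annotated exons. In the first 2 lines below capitals mark the TATAAA box, the CCAAT box and the GGGCGG box, searched on both strands, and in the last 2 lines they mark the p53 half-site.
Phlda3, chr1:135765835-135766084, plus strand: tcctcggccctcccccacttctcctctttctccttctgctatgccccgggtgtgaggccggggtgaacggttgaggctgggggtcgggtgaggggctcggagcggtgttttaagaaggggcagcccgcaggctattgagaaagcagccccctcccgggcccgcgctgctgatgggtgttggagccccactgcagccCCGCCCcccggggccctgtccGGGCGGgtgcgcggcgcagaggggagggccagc
Eda2r, chrX:97377217-97377459, minus strand: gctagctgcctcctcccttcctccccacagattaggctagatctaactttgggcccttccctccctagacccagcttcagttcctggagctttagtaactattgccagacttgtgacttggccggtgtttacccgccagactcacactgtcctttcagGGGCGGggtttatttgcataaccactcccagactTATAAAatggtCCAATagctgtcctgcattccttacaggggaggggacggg
Aen, chr7:78895927-78895956, plus strand: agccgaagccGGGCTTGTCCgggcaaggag
Ei24, chr9:36797335-36797354, minus strand: cgtgcggcccGGGCATGCCC

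The Eda2r window held 1 TATAAA, 1 CCAAT and 1 GGGCGG, and the Phlda3 window held 2 GGGCGG and neither of the other boxes. Over all 32851 promoter windows of this length, 12.4% held TATAAA, 33.8% held CCAAT and 32.7% held GGGCGG. The half-site was matched on both strands in 2 of the 8 member windows, 1 of Aen and 1 of Ei24, and in 7.13% of all windows. The Phlda3 and Eda2r windows, in which the boxes are marked, held no half-site, so no overlap could occur. A pair of half-sites with at most 13 bases between them was found in 0 of the 8 member windows and in 0.0639% of all windows. Of 2 core patterns of the paired site, CATG cores 6 bases apart were in 0 of the 8 member windows and 0.490% of all windows, and CNNG cores 6 bases apart were in 5 of the 8 and 63.5% of all windows. The windows also differed in composition: the Eda2r window had 4 CpG dinucleotides, that of Apaf1 had 42, and the other 6 windows had 11 to 18, with a median of 6 over all windows. A match of letters is a description of the sequence and not a bound site.

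The libraries held 37834096 to 41812565 reads in genes in Prmt5 KO and 42213314 to 44704636 in fl/fl. The targeted gene Prmt5 was at 1056, 1049 and 897 scaled counts in Prmt5 KO, against 6076, 6024 and 6010 in fl/fl, so each library matched its label. The gate genes Slamf1 (CD150) and Ly6a (Sca-1) were present in all 6 libraries, at 2731 scaled counts or more, and Cd48 RNA was at 446 to 757. Prmt5 fl/fl replicate 3 stood apart in a chi-square statistic of read counts over genes, divided by its degrees of freedom. This was 199 to 357 between it and each other library, against 26.2 to 182 among the other 5 libraries. Of these 5, KO replicate 3 was the next furthest, at 119 to 182 from the rest. Pairs without KO replicate 3 and fl/fl replicate 3 gave 26.2 to 91.0. Fold changes without fl/fl replicate 3 are given for Fas, Pidd1, Apaf1, Trp53inp1, Aen and Ei24, but not for the listed genes or the marker sums. Among all genes tested, 39 rose and 64 fell, or 0.276% and 0.453%, and with median-of-ratios size factors 35 rose and 22 fell. In RNA from bulk cells, fewer cells of a type and less RNA per cell cannot be told apart.

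**Figure D1:**
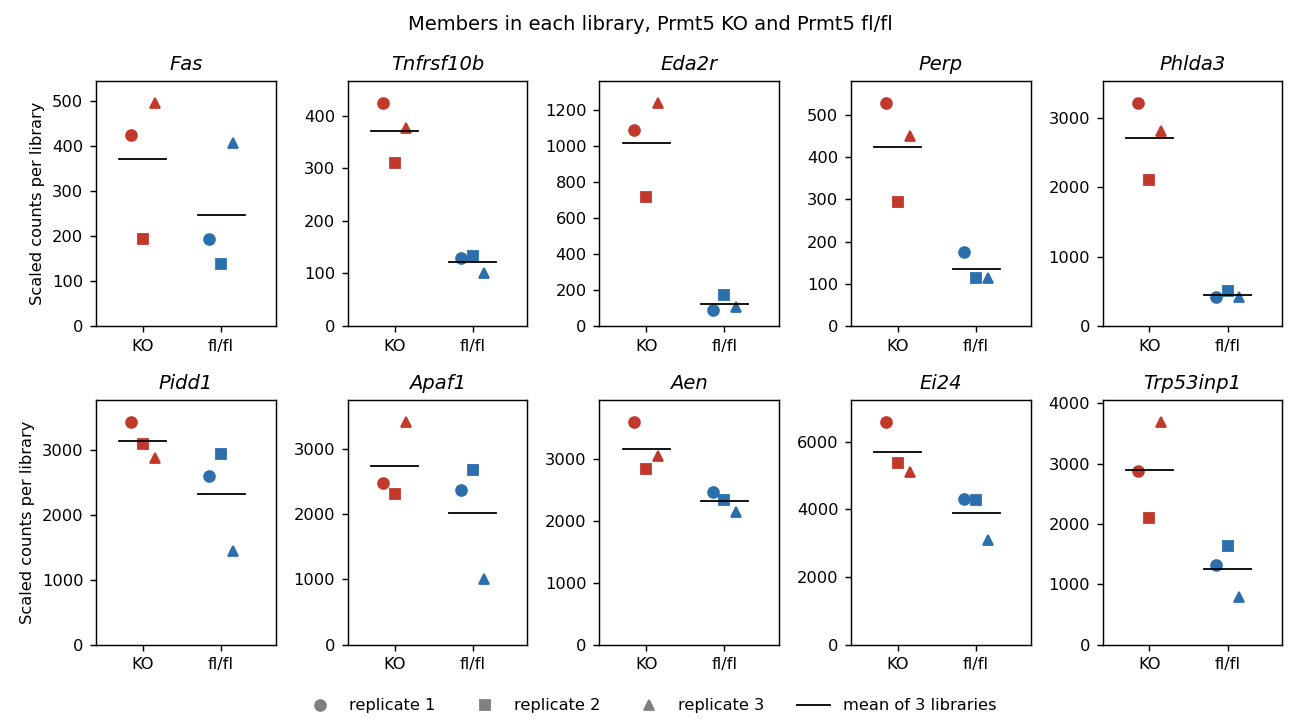
Scaled counts of each member (vertical axis, from 0) in the 3 Prmt5 KO libraries (red, left) and the 3 Prmt5 fl/fl libraries (blue, right), with symbols for the replicate number and a line at each mean. The groups are apart in 7 panels, and the values overlap for Fas, Pidd1 and Apaf1.

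Among the receptors, Eda2r had the highest log2 fold change of all members. Eda2r encodes a cell surface receptor, related to the tumor necrosis factor receptors, that binds the A2 form of ectodysplasin and has no death domain of the kind found in Fas. The gene lies on chromosome X (97333840 to 97377216, minus strand, GRCm38/mm10). It was at 1093, 717 and 1240 scaled counts in Prmt5 KO replicates 1 to 3, against 90.1, 170 and 107 in fl/fl replicates 1 to 3. The lowest KO library held over 4 times the highest fl/fl library, and the recovered reads behind these values numbered 671 to 1050 in KO and 89 to 170 in fl/fl. Its log2 fold change was 3.06 ± 0.32 (standard error; limma adjusted p = 0.0195), rank 34 from the top among 14113 genes. In the paired fit, with a replicate block, the limma adjusted p was 0.197. The call was also lost without KO replicate 1 (limma adjusted p = 0.142), KO replicate 3 (0.155) and fl/fl replicate 1 (0.0607).

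Tnfrsf10b, the receptor for the death ligand TRAIL, rose as well. It lies on chromosome 14 (69767472 to 69784411, plus strand). It was at 424, 310 and 377 scaled counts in Prmt5 KO libraries and at 129, 134 and 101 in fl/fl libraries. The groups were well apart although the gene was low, with 95 to 134 reads per fl/fl library. The log2 fold change was 1.60 ± 0.24 (standard error; limma adjusted p = 0.0429). This was the closest of the 3 calls to the threshold: it held without fl/fl replicate 3 (limma adjusted p = 0.0320) and was lost without each other library in turn (0.0987 to 0.227), with the replicate block (0.197) and with no filter on low values (0.0650).

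Fas, the receptor whose ligand is made by cytotoxic lymphocytes, did not pass the test. Scaled counts were 423, 192 and 494 in Prmt5 KO, against 194, 137 and 406 in fl/fl. The groups overlapped, since KO replicate 2 lay at the level of fl/fl replicate 1 and fl/fl replicate 3 was near the higher KO libraries. The log2 fold change was 0.63 ± 0.49 (standard error; limma adjusted p = 0.529), the widest error among the 10 members, and the log2 fold change came to 1.07 when fl/fl replicate 3 was left out and to 0.29 when fl/fl replicate 2 was. The gene lies on chromosome 19 (34290666 to 34327772, plus strand).

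Phlda3 encodes a small protein made almost wholly of a pleckstrin homology domain, which competes with AKT for membrane lipids and so holds AKT back. It is located on chromosome 1 (135766119 to 135769136, plus strand), just downstream of the first sequence above. Values were 3214, 2106 and 2815 scaled counts in Prmt5 KO libraries, against 422, 499 and 420 in fl/fl libraries. The fl/fl libraries were close together, and each KO library was more than 4 times any of them. The log2 fold change was 2.58 with a standard error of 0.20, the smallest p of the members (limma, adjusted p = 0.00564). The call held without any 1 fl/fl library and without KO replicate 2, and was lost without KO replicate 1 (limma adjusted p = 0.0709), without KO replicate 3 (0.0688) and with the replicate block (0.143).

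Perp, a tetraspan membrane protein of cell junctions that p53 induces in dying cells, was at 528, 294 and 450 scaled counts in Prmt5 KO and at 176, 113 and 115 in fl/fl. Its groups did not overlap and its log2 fold change of 1.63 (standard error 0.31) was close to that of Tnfrsf10b, but it was short of the threshold (limma, adjusted p = 0.0676). DESeq2 on the recovered reads called it higher (adjusted p = 4.53e-05), and neither edgeR's quasi-likelihood test (adjusted p = 0.0766) nor limma with the replicate block (adjusted p = 0.197) did. The gene lies on chromosome 10 (18845020 to 18857073, plus strand).

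**Figure D2:**
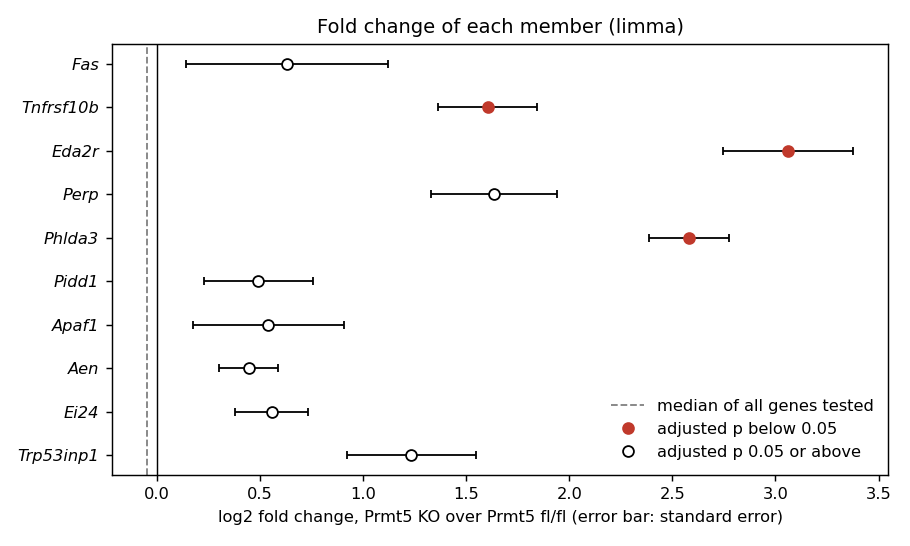
Log2 fold change of each member, Prmt5 KO over Prmt5 fl/fl (horizontal axis), with its standard error from limma. Red points mark the 3 members with an adjusted p below 0.05, and the dashed line is the median of all genes tested, at -0.048.

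Neither caspase adaptor passed the test. Pidd1, whose death domain joins the adaptor CRADD (RAIDD) and caspase-2 in the PIDDosome, was at 3429, 3086 and 2879 scaled counts in Prmt5 KO libraries, against 2602, 2927 and 1441 in fl/fl libraries. The groups overlapped, and fl/fl replicate 3 was far below the other libraries. The log2 fold change of 0.49 (standard error 0.26; limma adjusted p = 0.375) came to 0.18 without that library. Apaf1, the scaffold of the apoptosome, showed a similar arrangement, at 2480, 2319 and 3420 scaled counts in KO and 2368, 2674 and 1010 in fl/fl. KO replicates 1 and 2 lay near fl/fl replicates 1 and 2, KO replicate 3 lay above them, and fl/fl replicate 3 was again lowest. Its log2 fold change was 0.54 (standard error 0.37; limma adjusted p = 0.474) with all libraries and 0.10 without fl/fl replicate 3. Pidd1 lies on chromosome 7 (141438113 to 141444025, minus strand) and Apaf1 on chromosome 10 (90989311 to 91082770, minus strand).

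None of the 3 effectors passed the test, and in each of them the groups were apart. Trp53inp1, a stress protein that binds p53 and its kinase HIPK2 and also takes part in autophagy, was at 2878, 2091 and 3695 scaled counts in Prmt5 KO, against 1326, 1633 and 789 in fl/fl. Every KO library was above every fl/fl library, but the spread was wide in both groups. The log2 fold change was 1.23 ± 0.31 (standard error; limma adjusted p = 0.109), and 0.93 without fl/fl replicate 3.

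Aen, a nuclease that enhances apoptosis, was at 3597, 2834 and 3049 scaled counts in Prmt5 KO libraries and at 2461, 2339 and 2139 in fl/fl libraries. Its log2 fold change of 0.45 was the lowest of the members, yet its standard error, 0.14, was also the lowest (limma, adjusted p = 0.170). The log2 fold change of Aen came to 0.39 without fl/fl replicate 3. Ei24, a membrane protein of the endoplasmic reticulum linked to autophagy and cell death, was at 6589, 5367 and 5117 scaled counts in KO and at 4306, 4269 and 3103 in fl/fl. Its log2 fold change was 0.56 ± 0.18 (standard error; limma adjusted p = 0.166), and 0.40 without fl/fl replicate 3. Exons of Ei24 share 324 bases with Gm26787 on the other strand, and since the library kit does not mark strand, reads of the 2 genes cannot be told apart there. DESeq2 called all 3 effectors higher (adjusted p = 0.00224 for Trp53inp1, 0.0316 for Aen and 0.0323 for Ei24), and edgeR's quasi-likelihood test called none of them (adjusted p = 0.122, 0.148 and 0.151). Aen lies on chromosome 7 (78895854 to 78911209, plus strand), Ei24 on chromosome 9 (36779159 to 36797393, minus strand) and Trp53inp1 on chromosome 4 (11156431 to 11174379, plus strand).

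Levels of different genes were compared per length, as reads scaled by the deposited gene length in kilobases and by the reads in genes of each library (RPKM). The deposited lengths were below the merged GENCODE exons by unlike amounts, as for Ei24 (2291 against 4868 bases) and Phlda3 (1467 against 1559). The order of genes holds for the deposited lengths and may differ with others. In fl/fl cells the order of the mean levels was Ei24, Aen, Pidd1, Apaf1, Phlda3, Trp53inp1, Fas, Perp, Tnfrsf10b and Eda2r. Ei24 stood at 55.6 ± 7.69 RPKM in Prmt5 KO and 38.0 ± 6.68 RPKM in fl/fl (SD, n = 3 each). At the other end, Eda2r was at 3.91 ± 1.04 RPKM in KO and 0.470 ± 0.162 RPKM in fl/fl, and Tnfrsf10b at 2.61 ± 0.403 RPKM in KO and 0.852 ± 0.126 RPKM in fl/fl (SD, n = 3 each). The 3 genes with the lowest fl/fl levels were therefore Eda2r, Tnfrsf10b and Perp, and these with Phlda3 had the 4 highest log2 fold changes.

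The order differed between the genotypes. Phlda3 held the second place in Prmt5 KO, at 41.3 ± 8.55 RPKM, and the fifth place in fl/fl, at 6.82 ± 0.685 RPKM (SD, n = 3 each). In KO it was above 81.8% of all genes tested, against 42.2% in fl/fl. Neighbours in the fl/fl order whose libraries did not overlap were Ei24 and Aen, Pidd1 and Apaf1, Perp and Tnfrsf10b, and Tnfrsf10b and Eda2r. Aen and Pidd1 did not differ beyond the spread of their libraries, nor did the neighbours within the run of Apaf1, Phlda3, Trp53inp1, Fas and Perp. In KO the ranges of Perp, Fas, Eda2r and Tnfrsf10b overlapped from each gene to the next.

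**Figure D3:**
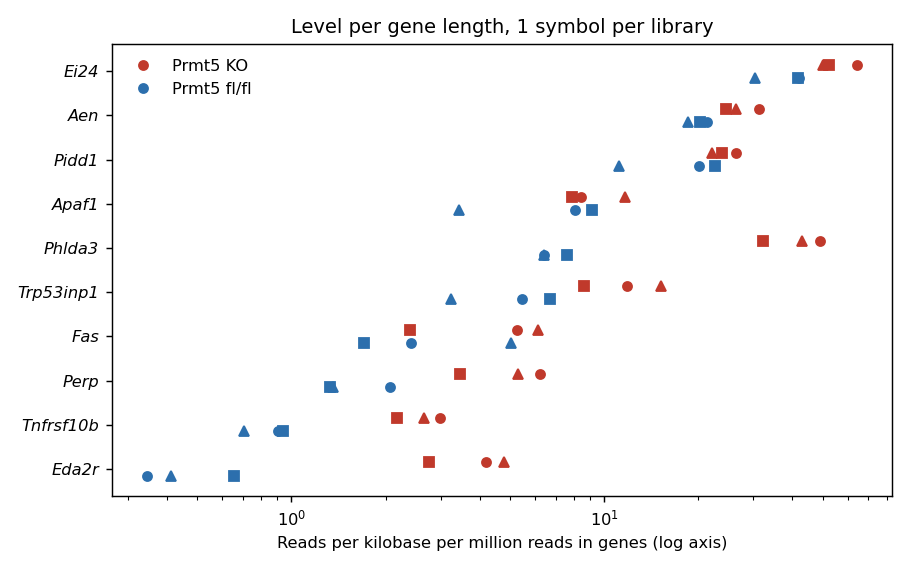
Level of each member in RPKM (horizontal log axis) in each Prmt5 KO library (red, upper row of each gene) and each Prmt5 fl/fl library (blue, lower row), ordered by the fl/fl mean. Phlda3 lies near Apaf1 in fl/fl, at 6.82 RPKM, and between Ei24 and Aen in KO, at 41.3 RPKM.

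The libraries of a group differed in the same sense across many members. KO replicate 2 was the lowest of the KO libraries for 8 of 10 members and the highest for 0, with a median log2 deviation from the KO mean of -0.29 over members and 0.029 over all genes tested. KO replicate 1 was highest for 6 members and KO replicate 3 for 4. In fl/fl, replicate 3 was lowest for 7 of 10 members, with a median log2 deviation of -0.22 over members and 0.011 over all genes tested. Within the pairs of libraries that share a replicate number, KO over fl/fl, the median log2 ratio of the members was 1.12, 0.42 and 1.83 for pairs 1 to 3. Over all genes tested these medians were -0.095, -0.055 and -0.10. All 10 members were above 0 in pairs 1 and 3, and 9 of 10 in pair 2, where Apaf1 was at -0.21.

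**Figure D4:**
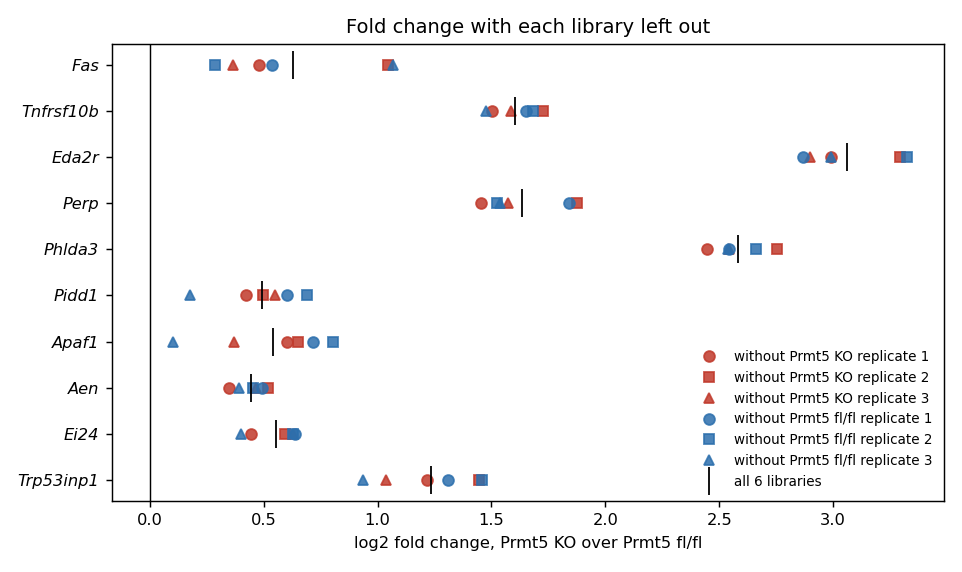
Log2 fold change of each member, Prmt5 KO over Prmt5 fl/fl (horizontal axis), with all 6 libraries (black bar) and with each library left out in turn (red for a KO library, blue for a fl/fl library). All values are above 0, and those of Pidd1 and Apaf1 come to 0.18 and 0.10 without fl/fl replicate 3.

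The genes that act beside the members in the same pathways were read from lists. Among 14 death ligands and other death receptors, 10 passed the filter on low values and 0 were called by limma, edgeR or DESeq2, with 0 at an unadjusted p below 0.05 by limma. Their median log2 fold change was -0.17. The TRAIL ligand gene Tnfsf10 was at 1779, 1752 and 1890 scaled counts in Prmt5 KO, against 1829, 2933 and 1527 in fl/fl (log2 -0.16; limma adjusted p = 0.753). Fasl, the ligand of Fas, was under the filter, at 3.54, 4.28 and 44.9 in KO and 3.04, 0 and 2.12 in fl/fl. The smallest p in the list belonged to Edar, the receptor for the A1 form of ectodysplasin, at 94.5, 165 and 100 in KO and 167, 175 and 180 in fl/fl (log2 -0.58; limma adjusted p = 0.343). Next was Tnf, tumor necrosis factor, at 155, 59.9 and 848 in KO and 100, 71 and 15.9 in fl/fl (log2 2.01; limma adjusted p = 0.356). The ligand of Eda2r, Eda, was low in both groups, at 15.4 to 90.9 in KO and 67 to 71.9 in fl/fl.

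Downstream of the receptors, 0 of 12 genes of the death receptor complex were called by limma and 0 by edgeR. DESeq2 called 1, lower, and of all 13814 genes it tested 616 were called lower. By limma 1 was higher and 1 lower at an unadjusted p below 0.05, against 4.58% and 13.6% of all genes tested. On the log2 scale the list had a median fold change of -0.013. Tradd, the adaptor of tumor necrosis factor receptor 1, was at 1722, 1696 and 1596 scaled counts in Prmt5 KO and 2318, 2568 and 3352 in fl/fl (log2 -0.70; limma adjusted p = 0.0991). Daxx, a Fas-binding protein that is also a histone chaperone, was at 3573, 3503 and 3484 in KO and 2712, 2947 and 2957 in fl/fl (log2 0.29; limma adjusted p = 0.238). Casp8, the caspase recruited by death receptors, was at 8906 to 9414 in KO and 8332 to 10756 in fl/fl.

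The list of the apoptosome, the PIDDosome and effector caspases had 0 of 14 genes called by limma, edgeR or DESeq2, with 0 higher and 2 lower at an unadjusted p below 0.05 by limma, against 13.6% lower among all genes tested, and a median log2 fold change of -0.11. Endog, a mitochondrial nuclease, was at 311, 313 and 318 scaled counts in Prmt5 KO and 498, 484 and 461 in fl/fl (log2 -0.61; limma adjusted p = 0.127). Htra2, a mitochondrial protease, was at 3825, 3881 and 3124 in KO and 4548, 4232 and 4727 in fl/fl (log2 -0.32; limma adjusted p = 0.264). The partners of APAF1 and PIDD1 did not pass the test: Casp9 had a log2 fold change of -0.20, Cycs (cytochrome c) of 0.24, Casp2 of -0.021 and Cradd of -0.031 (limma, adjusted p = 0.684, 0.430, 0.953 and 0.965).

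In the BCL2 family 0 of 12 genes were called by limma or edgeR. DESeq2 called 4, all higher, against 2.64% of the genes it tested. By limma 6 were higher and 1 lower at an unadjusted p below 0.05, against 4.58% and 13.6% of all genes tested. The median log2 fold change was 0.47. Bax and Bbc3 (PUMA), both p53 targets that promote death at mitochondria, had log2 fold changes of 1.06 and 1.06 (limma, adjusted p = 0.0676 and 0.0732). Without fl/fl replicate 3 limma called 2 genes of this list higher, against 120 of 14101 genes tested.

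Of the other p53 targets 21 of 22 symbols were in the table, 6 rose and 0 fell (limma), against 0.276% and 0.453% of all genes tested, and the median log2 fold change was 0.62. At an unadjusted p below 0.05, 12 were higher and 2 lower, against 4.58% and 13.6% of all genes tested. Those that rose were Cdkn1a and Ccng1 of the cell cycle, the RNA-binding protein Zmat3, the kinase Plk2, the repair nuclease Ercc5 and the G2 protein Gtse1, with log2 fold changes of 2.81, 1.19, 2.80, 2.40, 1.25 and 1.45. Their limma adjusted p ran from 0.0195 to 0.0475, and from 0.190 to 0.197 with the replicate block, where 0 of the 6 calls were left. In 6 of 6 KO replicate 2 was the lowest KO library, as it was for Eda2r, Tnfrsf10b and Phlda3. Limma called 5 without KO replicate 2, 9 without fl/fl replicate 3 and 0 without each of the other libraries in turn. Over all genes tested, limma called 15 and 120 higher in the first 2 of these fits and 1 to 4 in the others. The 2 lower genes at an unadjusted p below 0.05 were Ddb2, of nucleotide excision repair, and Tap1, a peptide transporter of antigen presentation. Ddb2 was at 770, 923 and 791 scaled counts in Prmt5 KO and 1122, 1183 and 1423 in fl/fl (log2 -0.58; limma adjusted p = 0.134), and Tap1 at 11977, 10172 and 10950 in KO and 13536, 15816 and 13258 in fl/fl (log2 -0.36; limma adjusted p = 0.191). In both, every KO value lay below every fl/fl value, as in 19.9% of all genes tested. Trp53, the gene of p53, was at 17870, 18635 and 15013 scaled counts in Prmt5 KO, against 14076, 14623 and 16122 in fl/fl (log2 0.20; limma adjusted p = 0.450).

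Other genes followed the called members closely. Of the 13124 tested genes left once the members and clone-like symbols (Gm and Rik names) were set aside, 71 had a Pearson r above 0.95 over the 6 libraries with the median standardized log2 value of Phlda3, Eda2r and Tnfrsf10b. The highest were Fam131a, Epha2, Sulf2, Svop and Gtse1, with r from 0.994 to 0.996. The 6 points share the genotype contrast, so r includes the difference between the groups. Epha2, an ephrin receptor kinase, was at 717, 402 and 683 scaled counts in Prmt5 KO, against 34.4, 35 and 28.6 in fl/fl. Sulf2, an extracellular sulfatase, was at 1924, 1099 and 1846 in KO and 223, 263 and 164 in fl/fl.

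Among markers of other cell types, the summed levels of 2 lists did not overlap between the groups. Of 10 megakaryocyte and platelet markers 1 fell and 0 rose (limma), against 0.453% and 0.276% of all genes tested. Their summed level was 30186 to 58116 scaled counts in Prmt5 KO and 68839 to 84682 in fl/fl. In this list 5 markers had every KO value below every fl/fl value, against 19.9% of all genes tested, and the other 5 overlapped, with Ppbp and Gp6 at log2 fold changes of 0.77 and 0.55, and Gp6 was at 0 in KO replicate 2. Of 8 red cell precursor markers 6 were tested, 1 fell and 0 rose (limma), against the same shares of all genes tested. In 3 of the 6 every KO value lay below every fl/fl value, against 19.9% of all genes tested, and in 0 above. The sum over the list was 2047 to 2516 in KO and 3188 to 8941 in fl/fl. Hbb-b1 and Hba-a1 were listed at 0 in every library, and Slc4a1 was at 0 in KO replicate 2. The fallen markers were Itga2b and Klf1, and with the replicate block neither passed (limma, adjusted p = 0.103 and 0.161). The sums of granulocyte and monocyte, lymphocyte, mast cell, and endothelial and stromal markers overlapped between the groups, as did that of the stem cell markers, at 99063 to 115378 in KO and 99214 to 144043 in fl/fl. Such sums are set by abundant genes, as by Nkg7 among lymphocyte markers, and single libraries stood out. Cd3e was at 0, 4.28 and 154 scaled counts in KO and 14.2, 3 and 3.18 in fl/fl. Itgam was at 1852, 1109 and 13041 in KO and 2645, 1312 and 419 in fl/fl. Mpo was instead highest in fl/fl replicate 1, at 53564, against 15944 in KO replicate 3. Megakaryocyte, red cell, granulocyte and monocyte, lymphocyte, and mast cell marker sums were all lowest in KO replicate 2. This was also the lowest KO library for most members. The stem cell sum and the endothelial and stromal sum were lowest in KO replicate 1. The part of these differences in the results on the members was not tested.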

How the data were processed

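RNA was sequenced from 6 libraries of sorted mouse hematopoietic stem cells, made with the SMART-Seq v4 and Nextera XT kits, per the labels' protocols. STAR, an aligner, featureCounts, a read counter, and build mm10 are named in the submitters' processing notes; versions, annotation and counting options were not stated there. The authors deposited whole-number read counts for Prmt5 fl/fl replicate 2 and, for the other libraries, a signal scaled to that library's total of 44704636. Undoing the scaling with the totals in the last line of the table gave whole reads for 100% of values (tolerance 1e-06), and 37834096 to 44704636 reads in genes per library.

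Genes whose mean reached 10 were kept (14113 of 24110). On log2(value + 1), Prmt5 KO was compared with Prmt5 fl/fl by limma 3.58.1 with a trend of variance on mean, in a two-sided test on 4 residual degrees of freedom with Benjamini-Hochberg adjustment over all genes tested (threshold 0.05). The pseudocount understates changes of low genes. Alternatives were other pseudocounts and filters, median-of-ratios, TMM and quantile scaling, edgeR 4.0.16 and DESeq2 1.42.0 on the recovered reads, a replicate block, and leaving out each library (R 4.3.3). On the recovered reads edgeR called 34 genes higher and 26 lower. The fit was tested on simulated data. The deposited gene length was used only for levels per length. Loci came from GENCODE M21 and promoters from RefSeq; motif search used Python 3.11.15 and plots matplotlib 3.10.9.

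Members and lists were chosen with earlier results of these data known. Named genes were all members, Prmt5 and Trp53, and the 5 genes most like the called members. In each pathway list they were the genes past the threshold or else the 2 with the smallest p. Tnfsf10, Fasl, Eda, Casp8, Casp9, Cycs, Casp2, Cradd, Ddb2, Tap1 and the gate genes were named after their values were seen. So were the cell type markers Itga2b, Klf1, Ppbp, Gp6, Slc4a1, Hbb-b1, Hba-a1, Nkg7, Cd3e, Itgam and Mpo. Each p-value measures spread between pools of 2 mice.

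Libraries with the same replicate number share a title prefix, whose meaning is not stated, and mice were litter-matched. The results come from the fit without pairs; because these libraries may be pairs, values from a paired fit (replicate block) are given beside each call it changes. Deviations from the group mean correlated across genes at -0.14, 0.067 and -0.26 within pairs 1 to 3, so the data themselves do not show the pairing. The paired fit has 2 residual degrees of freedom.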

Additional observations from a re-analysis of the deposited data

How the results depend on the processing

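All 10 members kept a log2 fold change above 0 in each of the 16 alternatives. Of the 3 calls, Phlda3 was lost in 3 alternatives, Eda2r in 4 and Tnfrsf10b in 7 (named beside each gene); the cause was not tested. The number of members called higher was 3 under the other pseudocounts (0.5 and 5), a minimum mean of 50, the other scalings and edgeR, 7 with DESeq2 and 0 with the replicate block. Among all genes the fit with the replicate block called 1 higher and 0 lower by limma, 0 of the other p53 targets and neither of the megakaryocyte and red cell markers that had fallen, and changed no other pathway list count; 1981 genes and 7 members had an unadjusted p below 0.05. DESeq2 called 365 genes higher and 616 lower, 12 other p53 targets and 4 BCL2 family genes higher, and 1 gene of the death receptor complex lower. The count of all genes that fell was 38 with no filter on low values, 22 with median-of-ratios size factors, 32 with TMM factors, 26 with quantile normalization and 26 with edgeR, against 64; higher genes made up 61.4%, 52.2%, 59.4% and 56.7% of all calls under the last 4 of these, against 37.9%. Leaving out each library in turn gave 0 to 3 members called higher, 1 to 120 genes higher and 2 to 257 lower, 0 to 9 other p53 targets and 0 to 2 BCL2 family genes higher, and 0 to 1 gene of the death receptor complex lower. Tnfrsf10b, Perp, Fas and Eda2r rest on 134, 174, 383 and 170 reads or fewer per fl/fl library. The part of counting error in their spread was not tested.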
